A study of Mus musculus with 2 samples.

Results

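The mouse mitochondrial genome encodes its own ribosomal RNAs, transfer RNAs and a small set of respiratory chain subunits, and these transcripts were followed through spermatogenesis. The members were all gene symbols of the deposited symbol list that begin with mt-, which gave 30 of 25065 symbols: 2 ribosomal RNAs (rRNAs), 13 messenger RNAs (mRNAs) and 15 transfer RNAs (tRNAs). The annotation of the mitochondrial chromosome holds 37 genes, and the other 7 tRNA genes (mt-Tn, mt-Ts1, mt-Td, mt-Tk, mt-Tg, mt-Th and mt-Te) were not analysed here. Single-cell RNA sequencing had been done on testes of adult mice of strain C57BL/6 in the labels and C57BL/6N in the study's methods, digested with collagenase I, in 2 libraries. The wild-type (WT) library came from normal testes and the knocked-out (KO) library from testes of mice in which both exons of Tex13a, an X-linked gene expressed in germ cells, had been removed by CRISPR/Cas9. For each genotype the testes of several mice were pooled into 1 library, so animals cannot be told apart and no difference between the genotypes could be tested. All values below are sums of unique molecular identifiers (UMIs, each standing for 1 captured RNA molecule) over the cells of a library or of one of the authors' 13 clusters: spermatogonia (Sg), spermatocytes (Sc1 and Sc2), a mixed cluster of spermatocytes and early spermatids (Sd1) and spermatids of rising age (Sd2 to Sd10).

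Both strands of the circular mitochondrial genome are transcribed as long precursors, from which tRNAs, rRNAs and mRNAs are cut out. Most of the mRNAs then receive short poly(A) tails, which in several of them complete the stop codon. The mRNAs are translated by mitochondrial ribosomes built on the mt-Rnr1 and mt-Rnr2 rRNAs. All 13 proteins are subunits of respiratory chain complexes I, III and IV or of the ATP synthase (complex V), each of which also needs subunits encoded in the nucleus. In the male germ line the mitochondria change shape from spermatogonia to spermatids, and in late spermatids they are arranged in a sheath around the midpiece of the sperm tail while most of the cytoplasm is shed.

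The WT library held 5170 cells with 45568532 UMIs and the KO library 7238 cells with 67734689 UMIs. The median cell had 6508 UMIs in WT and 6714.5 in KO, and the libraries shared 0 cell barcodes. The cluster labels were read against markers: Stra8 (a meiotic entry factor, 4287 CPM in WT and 4453 in KO, where CPM are UMIs scaled to the same total in every cluster of each library) and the germ cell RNA-binding gene Dazl (2601 and 2478 CPM) were highest in Sc1 and not in Sg. Piwil1 was highest in Sc2, Tnp2 in Sd7 and the protamine gene Prm1 in Sd8. The other listed spermatocyte markers were highest elsewhere in both libraries, Sycp3 and Hormad1 in Sc1, Ccna1 in Sd1 and Spag6 in Sd3. Of the somatic markers with a certain row, Cyp17a1 (1 of 5 Leydig markers) reached 10.2 CPM at most, Myh11 (1 of 3 peritubular markers) 14.0, and Cd68 and C1qb (2 of 5 macrophage markers) together 56.7, in WT cells of Sd10, where Cd68 was at 0. Sertoli and endothelial markers had no gene with a certain row. The 3 red cell markers (Hbb-bs, Hba-a1 and Hba-a2) were higher and unequal between the libraries. They summed to 9.39 CPM in WT and 784 in KO in Sd8, and to 542 and 10.2 in Sd9. The 8 markers of elongating spermatids summed to 194997 CPM in WT and 185481 in KO in Sd10, but also to 41485 and 41253 CPM in spermatogonia.

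Mitochondrial genes held 251990 UMIs, or 0.553% of all, in WT and 415106 UMIs, or 0.613%, in KO. The most in any cell was 8.33% in WT and 8.04% in KO, with 9 and 7 cells above 5%. Of the 667096 mitochondrial UMIs of both libraries, rRNAs took 55.2%, mRNAs 44.6% and tRNAs 0.195%. The counts were concentrated in 8 genes, mt-Rnr1, mt-Rnr2 and the mRNAs mt-Nd1, mt-Nd2, mt-Nd4, mt-Nd5, mt-Cytb and mt-Co1, which could be followed in every cluster, and the other 22 rested on few molecules.

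The beads capture RNA at poly(A), so the 3′ end of a transcript is the stretch next to the capture site. The end of an annotated gene need not be that stretch, since mt-Nd4l overlaps mt-Nd4 and mt-Atp8 overlaps mt-Atp6. Runs of A also lie inside genes, with up to 8 bases in mt-Nd2 and 7 in mt-Rnr2, and capture there was not tested. The last 30 bases of the genes that carry the results, and of mt-Co3, which ends like mt-Nd4 and mt-Cytb but was hardly counted, are printed from the GENCODE vM21 transcripts (GRCm38). Capitals mark the last complete codon or, where the reading frame ends in 1 base, that base. The rRNAs have no capitals.
mt-Rnr1: aagcatactggaaagtgtgcttggaataat
mt-Rnr2: atacgtacaccctctaacctagagaaggtt
mt-Nd1: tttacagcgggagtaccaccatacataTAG
mt-Nd2: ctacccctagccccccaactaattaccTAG
mt-Nd4: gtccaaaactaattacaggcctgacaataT
mt-Nd5: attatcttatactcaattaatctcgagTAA
mt-Cytb: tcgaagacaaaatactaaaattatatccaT
mt-Co1: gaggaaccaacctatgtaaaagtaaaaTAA
mt-Co3: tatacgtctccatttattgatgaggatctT
Of the 13 mRNAs, 8 end in TAA, 2 (mt-Nd1 and mt-Nd2) in TAG and 3 (mt-Co3, mt-Nd4 and mt-Cytb) in a single T. Among the 6 mRNAs with many UMIs, each of these endings occurs, so a complete stop codon was not shared by the well counted genes.

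Levels between genes were compared as UMIs of both libraries per kilobase of the annotated gene. The rRNA of the large mitochondrial ribosomal subunit, mt-Rnr2 (chrM:1094-2675, plus strand), had 184469 UMIs per kilobase and that of the small subunit, mt-Rnr1 (chrM:70-1024), had 80116. Of the complex I mRNAs, mt-Nd1 (chrM:2751-3707) had 81115 UMIs per kilobase, mt-Nd2 (chrM:3914-4951) 43035, mt-Nd4 (chrM:10167-11544) 29878 and mt-Nd5 (chrM:11742-13565) 14332. These values lay above that of mt-Nd3 (chrM:9459-9806), a small complex I subunit, at 3368 UMIs per kilobase. The only complex III mRNA, mt-Cytb (chrM:14145-15288, cytochrome b), had 56053 UMIs per kilobase. The complex IV mRNA mt-Co1 (chrM:5328-6872, the catalytic subunit of cytochrome c oxidase) had 27321.

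The other mRNAs were nearly absent from the counts. mt-Co2 (chrM:7013-7696), which encodes the subunit of complex IV that takes up electrons from cytochrome c, had 67 UMIs in both libraries together, and mt-Co3 (chrM:8607-9390), another core subunit of that complex, had 21. The complex V mRNAs mt-Atp6 (chrM:7927-8607) and mt-Atp8 (chrM:7766-7969), which overlap on the genome, had 77 and 7 UMIs. The complex I mRNA mt-Nd4l (chrM:9877-10173), whose end overlaps the start of mt-Nd4, had 9 UMIs. mt-Nd6 (chrM:13552-14070), the only mRNA on the minus strand, had 151, and its end overlaps that of mt-Nd5, so without knowledge of how the counting used strand the reads at the overlap cannot be told apart. Subunits of one complex were thus counted at very different depths: within complex IV, per kilobase, mt-Co1 stood at 27321 UMIs, mt-Co2 at 98.0 and mt-Co3 at 26.8.

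**Figure D1:**
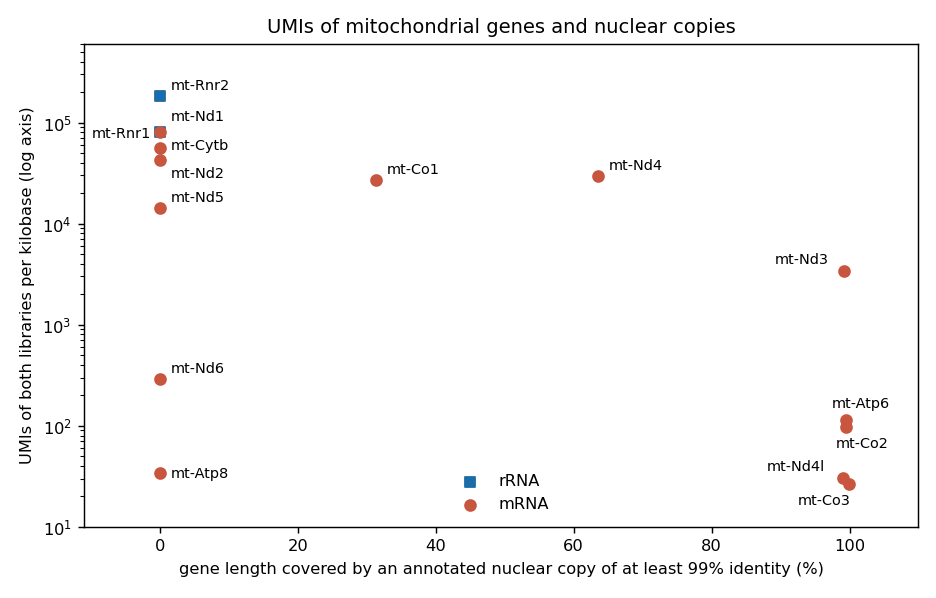
UMIs of both libraries per kilobase of each rRNA and mRNA gene (log axis) against the share of its length, in percent, that an annotated nuclear copy of at least 99% identity covers. The 5 genes covered almost whole lie at or below 3368 UMIs per kilobase, and mt-Nd6 and mt-Atp8, for which no annotated copy was found, are also low.

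The low counts of 5 of these genes went with near-identical nuclear copies. In the GRCm38 annotation, a stretch of the minus strand of chromosome 1 holds pseudogenes of mt-Co2 (Gm28661, chr1:24614885-24615565, 100% identity), mt-Atp6 (Gm10925, chr1:24613974-24614651, 100%), mt-Co3 (Gm28437, chr1:24613189-24613971, 100%), mt-Nd3 (Gm28438, chr1:24612775-24613119, 99.7%) and mt-Nd4l (Gm10222, chr1:24612407-24612700, 100%). These copies of at least 99% identity cover 99.6% of mt-Co2 and of mt-Atp6, 99.9% of mt-Co3 and 99.1% of mt-Nd3, and 294 of the 297 bases of mt-Nd4l. Reads of these genes can be split with the copies or lost, depending on how reads with several matches were counted, which is not given in the sources used here, and the part of the copies in the low counts was not tested. The values of these 5 genes are uncertain for that reason.

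For mt-Nd4 the copy Gm28439 (chr1:24611535-24612410, 100% identity) ends 502 bases before the end of the gene and covers 0% of its last 100 bases. mt-Co1 is covered over its last 483 bases, and so over 100% of its last 100 bases, by Gm29216 (chr1:24615706-24616197, 99.8% identity, 1 mismatch), yet it had 42211 UMIs. A nuclear copy of the whole of mt-Co1 on chromosome 2, Gm13340 (chr2:22588103-22589647, 97.6% identity), had 349 UMIs. No annotated copy of at least 95% identity over at least 200 bases was found for mt-Atp8, mt-Nd6, mt-Nd1, mt-Cytb or the rRNAs, but the search could find only annotated copies, and mt-Atp8 is itself only 204 bases long, so a copy of it outside the annotation was not looked for.

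The mitochondrial share of all UMIs was highest in spermatogonia and early spermatocytes, lowest in mid spermatids, and higher again in the latest spermatids. It was 2.10% in WT and 2.19% in KO in Sg, and 2.26% and 2.47% in Sc1. In Sc2 it was 0.988% and 1.05%, and in Sd4, round spermatids, 0.171% and 0.223%. In Sd10 it was 0.586% and 0.719%, and the highest late value of KO was 0.759% in Sd9. Both libraries had their highest share in Sc1, but the order of the last clusters differed, with Sd10 above Sd9 in WT and below it in KO.

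This course joined 2 different courses of the classes. The summed mRNAs went from 14095 CPM in WT and 13489 in KO in Sg to 172 and 154 CPM in Sd4, a level 81.8-fold lower in WT (log2 ratio -6.35) and 87.7-fold lower in KO (-6.45). The summed rRNAs went from 6844 and 8434 CPM to 1532 and 2069 CPM, 4.47-fold and 4.08-fold lower. Over all genes with at least 10 UMIs the median log2 ratio from Sg to Sd4 was -0.37 in WT and -0.14 in KO, and 43.5% of them in WT and 41.3% in KO were at least 2-fold lower in Sd4, as were each of the 8 well counted mitochondrial genes in both libraries.

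**Figure D2:**
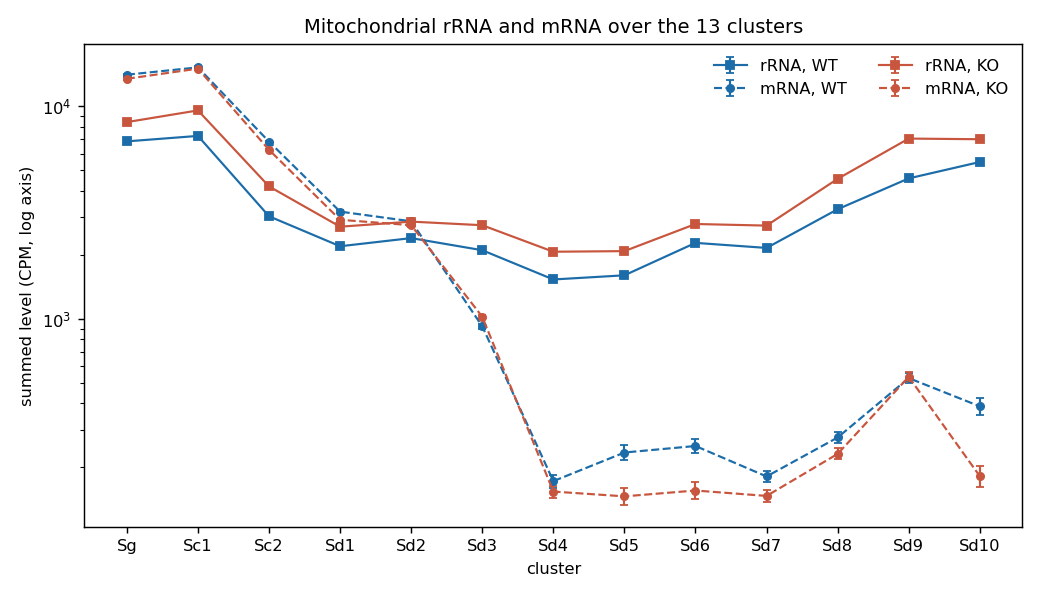
Summed level of the mitochondrial rRNAs (squares) and mRNAs (circles) in CPM on a log axis over the 13 clusters, WT in blue and KO in red, with 95% Poisson intervals. The mRNA lines pass from 14095 (WT) and 13489 (KO) CPM in Sg to 172 and 154 CPM in Sd4, whereas the rRNA lines end at 5472 and 7004 CPM in Sd10.

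On the log scale, most of the drop in mRNA lay between Sd2 and Sd4. The mRNA sum was 2877 CPM in WT and 2759 in KO in Sd2, 922 and 1022 in Sd3, and 172 and 154 in Sd4. The steps had log2 ratios of -1.64 and -1.43 from Sd2 to Sd3 and -2.42 and -2.73 from Sd3 to Sd4, when the median gene stood between -0.18 and -0.43. Over the same clusters the rRNA sum passed from 2398 and 2868 CPM to 1532 and 2069 CPM. Per cell, the mRNA UMIs went from 24.5 in WT and 26.4 in KO in Sd2 to 1.99 and 1.77 in Sd4.

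After Sd4 the mitochondrial rRNA sum was higher again, though in Sd5 it was only 1602 CPM in WT and 2083 in KO. The mRNA sum of KO stayed near its Sd4 level in Sd5, Sd6 and Sd7, at 146, 155 and 147 CPM. In WT it was 235, 252 and 181 CPM in these clusters. In Sd8 it was 276 CPM in WT and 231 in KO. By Sd10 most transcripts were lower than in Sd4. In Sd9 the rRNA sum was 2.99-fold higher than in Sd4 in WT and 3.41-fold higher in KO, and the mRNA sum was higher by about as much, 3.05-fold and 3.47-fold. In Sd10 the classes parted. The rRNA sum was 3.57-fold higher than in Sd4 in WT (log2 1.84) and 3.39-fold higher in KO (1.76), and the mRNA sum 2.25-fold (1.17) and 1.18-fold (0.24) higher. The median gene had log2 ratios of -2.28 and -2.17 from Sd4 to Sd10, and 9.36% of genes in WT and 8.82% in KO were at least 2-fold higher in Sd10. Among the 8 well counted mitochondrial genes, mt-Rnr1, mt-Rnr2, mt-Nd1, mt-Nd2, mt-Nd5 and mt-Cytb were at least 2-fold higher in WT, and mt-Rnr1 and mt-Rnr2 in KO. Counted per cell, the rRNA UMIs were 17.7 in WT and 23.8 in KO in Sd4 and 37.3 and 44.4 in Sd10, so the higher level was seen without the scaling to CPM as well. The mRNA UMIs per cell were 1.99 and 1.77 in Sd4, 3.27 and 3.13 in Sd9, and 2.64 and 1.15 in Sd10, which in KO was below Sd4.

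The ratio of rRNA to mRNA UMIs accordingly differed between the ends of the series. It was 0.486 in WT and 0.625 in KO in Sg, 2.28 and 2.70 in Sd3, and 8.90 and 13.5 in Sd4. In Sd10 it was 14.1 in WT (95% interval 12.9 to 15.5) and 38.6 in KO (34.5 to 43.2), the highest of the 13 clusters in each library. These values rest in part on few cells: on the log2 scale they were 3.82 and 5.27, and without the 5% of cells with most mitochondrial mRNA, an alternative chosen after the data were seen, 4.81 and 5.85. Intervals here and below cover counting error only.

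The large-subunit rRNA mt-Rnr2 held most of the mitochondrial UMIs of late spermatids. It stood at 5377 CPM in WT and 6667 in KO in Sg, had its lowest level in Sd4 at 1217 and 1722 CPM, and reached 4716 and 6291 CPM in Sd10. The log2 ratio from Sg to Sd10 was -0.19 in WT and -0.08 in KO, beside medians over all genes of -3.09 and -2.92. A UMI of mt-Rnr2 was found in 97.6% of WT and 99.2% of KO cells of Sd4 and in 99.5% and 100% of Sd10, so its level was spread over nearly all cells.

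The small-subunit rRNA mt-Rnr1 kept less of its spermatogonial level. It went from 1467 CPM in WT and 1767 in KO in Sg to 315 and 347 CPM in Sd4 and 756 and 713 CPM in Sd10. Its log2 ratio from Sg to Sd10 was -0.96 and -1.31. The number of mt-Rnr2 UMIs per mt-Rnr1 UMI was therefore not fixed, with 2.30 in WT and 2.53 in KO in Sc2, its lowest value, and 6.24 and 8.82 in Sd10, its highest, although both rRNAs come from the same strand of the precursor.

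Complex I is the entry point of electrons from NADH, and 4 of its 7 mitochondrial mRNAs could be followed. mt-Nd1 stood at 4306 CPM in WT and 3829 in KO in Sg, 1180 and 989 in Sd1, 183 and 188 in Sd3, and 54.1 and 37.9 in Sd4. mt-Nd2 stood at 1976 and 1996 CPM in Sg, 105 and 133 in Sd3, and 21.5 and 25.2 in Sd4. mt-Nd4 stood at 1995 and 1692 CPM in Sg, 220 and 216 in Sd3, and 22.4 and 17.5 in Sd4. All 3 were much lower in Sd4 than in Sg in each library, but mt-Nd4 was lower by the last of these steps more than the others, with log2 ratios from Sd3 to Sd4 of -3.29 in WT and -3.62 in KO against -1.75 and -2.31 for mt-Nd1.

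mt-Nd5, whose product is one of the proton-pumping subunits, differed least between Sg and Sd4 among the 6 mRNAs of WT, with 853 CPM in Sg and 17.6 in Sd4 (-5.59), and 1108 and 15.9 CPM in KO (-6.11). mt-Nd3 had 76.7 CPM (126 UMIs) in WT and 53.9 CPM (78 UMIs) in KO in Sg and 1 UMI in each library in Sd4. mt-Nd6 had 11 and 5 UMIs in Sg, 28 and 43 in Sc2 and 0 in both libraries in Sd4 and Sd10, where a count of 0 allows up to 3 UMIs. mt-Nd4l had 9 UMIs over all clusters, and nothing can be said of its course.

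Complex III passes electrons on to cytochrome c, and its cytochrome b mRNA had the largest difference of the 6 mRNAs at the end of meiosis. mt-Cytb stood at 1804 CPM in WT and 1468 in KO in Sc2 and at 307 and 249 in Sd1, a log2 ratio of -2.56 in both libraries. It was then higher in Sd2, at 503 and 424 CPM (log2 ratios of 0.71 and 0.77), before reaching 34.7 and 34.8 CPM in Sd4. Of the complex I mRNAs, mt-Nd4 and mt-Nd5 had the same pattern at smaller size, with log2 ratios from Sc2 to Sd1 of -1.49 and -1.55 in WT and -1.39 and -1.54 in KO, and from Sd1 to Sd2 of 0.44 and 0.25 in WT and 0.52 and 0.34 in KO. mt-Nd1 and mt-Nd2 were lower at both steps.

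In complex IV, where electrons are passed to oxygen, mt-Co1 differed little at the same step. It stood at 731 CPM in WT and 902 in KO in Sc2 and at 640 and 676 in Sd1 (log2 ratios of -0.19 and -0.42). It was 144 and 179 CPM in Sd3 and 21.7 and 22.2 in Sd4. Between Sc2 and Sd1 the median gene had log2 ratios of -0.27 and -0.20, so mt-Co1 lay near the median gene there and mt-Cytb far below it. mt-Co2 had 12 and 21 UMIs in Sc2 and 1 UMI in all clusters from Sd4 on, and mt-Co3 had 5 and 8 UMIs in Sc2 and 0 from Sd4 on. For complex V, mt-Atp6 had 14 and 31 UMIs in Sc2 and 2 UMIs in all from Sd4 on, and mt-Atp8 had 1 and 5 UMIs in Sc2 and 1 other UMI, in Sg.

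The make-up of the mRNA pool thus differed between clusters, with the same order of values in both libraries at the end of meiosis. mt-Cytb made up 26.4% of mitochondrial mRNA UMIs in WT and 25.4% in KO in Sg, 9.60% and 8.51% in Sd1, and 22.9% and 20.3% in Sd10. mt-Co1 made up 8.21% and 10.1% in Sg, 20.0% and 23.1% in Sd1, and 8.25% and 13.8% in Sd10. mt-Nd4 made up 14.2% and 12.5% in Sg and 23.8% and 21.2% in Sd3. The distance of the make-up from that in Sg was taken as the share of mRNA UMIs, among those of the 6 mRNAs, that would have to pass from one gene to another to make both alike. It was 19.5 percentage points in Sd1 in both libraries and 20.0 in WT and 19.1 in KO in Sd3. From Sd4 to Sd10 it lay between 5.20 and 9.21 points in WT and between 7.09 and 11.9 in KO, below the values of Sd1 and Sd3. The nearness was not particular to Sg: to the make-up of the whole library the distance in these clusters was 1.58 to 9.34 points in WT and 4.29 to 8.72 in KO.

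**Figure D3:**
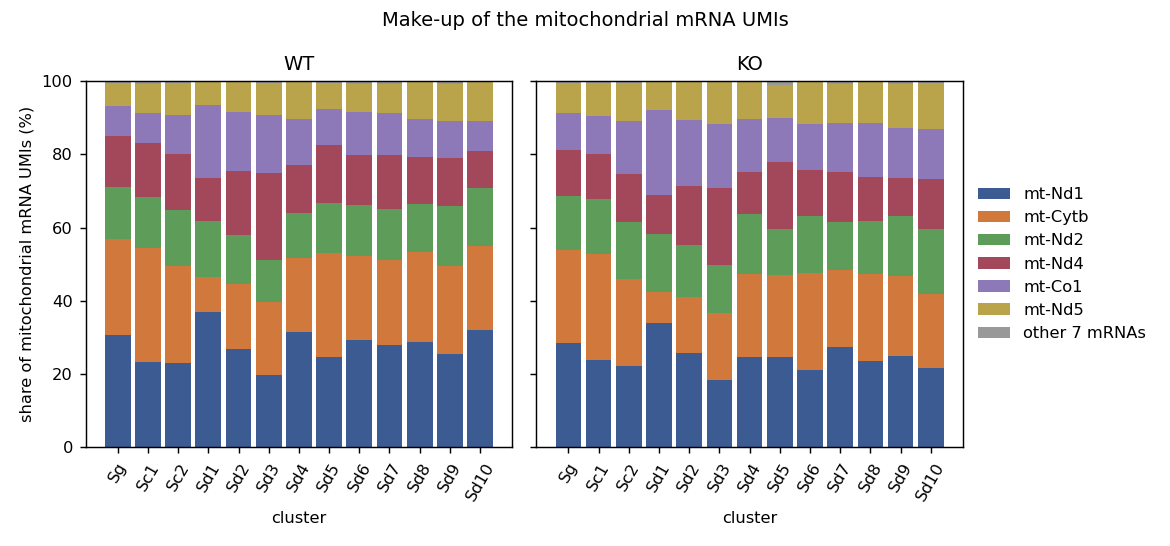
Share of the mitochondrial mRNA UMIs (percent) that each of 6 mRNAs, and the other 7 together, took in each cluster, for WT and KO. The mt-Cytb band is narrowest in Sd1, at 9.60% in WT and 8.51% in KO, where that of mt-Co1 is widest, at 20.0% and 23.1%.

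The 15 tRNAs, which bring amino acids to the mitochondrial ribosome, had 1304 UMIs in all. mt-Ty had most, with 299 UMIs in both libraries, followed by mt-Tw with 191, mt-Tp with 187, mt-Tt with 140 and mt-Tm with 139. mt-Ti had 91 UMIs, mt-Tv 69, mt-Tl2 54, mt-Ts2 37, mt-Ta 26, mt-Tq 24, mt-Tl1 16, mt-Tc 14, mt-Tf 11 and mt-Tr 6. Most of these genes border or overlap an rRNA or mRNA gene, and mature tRNAs have no poly(A) tail, so whether a UMI is of a tRNA or of an uncut precursor cannot be told apart. The tRNA sum had 44.5 CPM in WT and 26.2 in KO in Sg, 13.8 and 17.5 in Sd3, and 3.42 and 2.67 in Sd4. In Sd10 it rested on 1 and 3 UMIs. In Sd9 the rRNA and mRNA sums were higher than in Sd4. The tRNA sum went from 15 and 16 UMIs in Sd4 to 5 and 6 in Sd9, or 1.91 and 2.35 CPM.

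Between single cells, mitochondrial mRNAs were spread more evenly in the early clusters than in the late ones. At least 1 mitochondrial mRNA UMI was found in 87.9% of WT and 89.9% of KO cells of Sd3, in 55.9% and 48.5% of Sd4, and in 62.5% and 48.2% of Sd10. With every cell thinned to 3000 UMIs, these shares were 74.6% and 77.2%, 28.5% and 24.5%, and 46.0% and 33.5%. No cluster here lacks mitochondria, so the share that free RNA alone would give could not be read from a cell type without these genes.

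The 5% of cells with most mitochondrial mRNA held 17.4% of these UMIs in WT and 14.5% in KO in Sg. In Sd4 they held 50.7% and 54.6%, and in Sd9 62.2% and 64.0%. In Sd10 they were 10 WT cells with 265 of 485 UMIs (54.6%, and 74 in 1 cell) and 14 KO cells with 118 of 320 (36.9%, at most 19 in 1 cell). The rRNAs were spread more evenly in Sd10, where the 5% of cells with most rRNA held 20.7% and 17.0% of its UMIs.

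Markers of spermatogonia and spermatocytes were both higher in the 5% of cells with most mitochondrial mRNA in each cluster from Sd5 to Sd10 of both libraries. This did not hold in every earlier cluster. In Sd5 the spermatogonial markers stood at 243 CPM against 36.1 in the other cells in WT and 63.6 against 22.0 in KO. The spermatocyte markers stood at 450 CPM against 81.8 in WT and 240 against 83.8 in KO. The spermatocyte markers of WT cells of Sd4 stood at 401 CPM in the cells with most mitochondrial mRNA and at 409 in the others. In Sd9 the cells with most mitochondrial mRNA had 4372 CPM of it in WT and 5258 in KO, and the other cells 215 and 205. The spermatogonial markers with 1 possible matrix row (Stra8, Dazl, Uchl1 and Kit, 4 of the 6 listed) summed to 321 CPM in WT and 362 in KO in the first cells and to 22.7 and 25.1 in the others. The 5 spermatocyte markers (Piwil1, Sycp3, Spag6, Ccna1 and Hormad1) summed to 597 CPM against 57.3 in WT and 555 against 103 in KO. Of these, Ccna1 was highest in Sd1 and Spag6 in Sd3, and so not in the spermatocyte clusters. In Sd10 the mRNA values were 3768 CPM against 186 in WT and 1207 against 121 in KO, and those of the spermatogonial markers 256 (18 UMIs) against 26.2 (31 UMIs) and 133 (13 UMIs) against 22.2 (37 UMIs). The spermatocyte markers of Sd10 had 327 CPM against 49.1 in WT and 256 against 73.9 in KO. Over whole clusters, the mRNA sum of Sd10 was 2.75% of that in Sg in WT and 1.35% in KO, and the spermatogonial marker sum, which was itself higher in Sc1 than in Sg, 1.25% and 0.959%, whereas the rRNA sum was 80.0% and 83.0%. A part of RNA or of cells from earlier stages in the mRNA level of late spermatids was not tested.

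**Figure D4:**
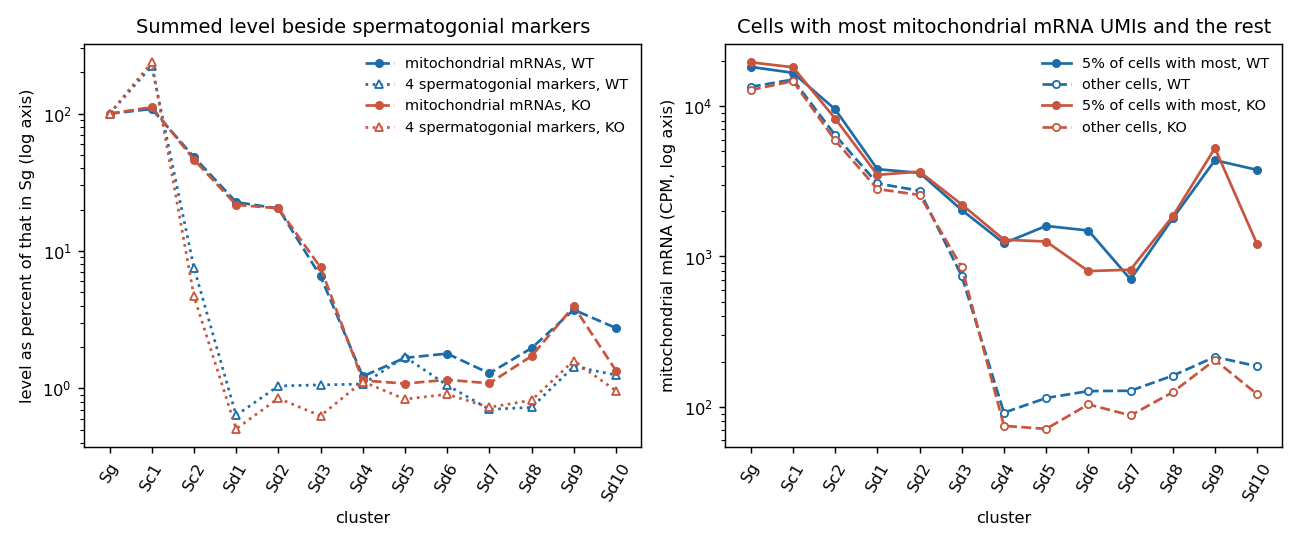
Left, summed mitochondrial mRNAs (filled circles) and 4 spermatogonial markers (open triangles) as percent of their level in Sg, and right, mitochondrial mRNA in CPM in the 5% of cells with most of it (filled circles) and in the other cells (open circles), all on log axes over the 13 clusters, WT in blue and KO in red. In Sd10 the mRNAs stand at 2.75% (WT) and 1.35% (KO) and the markers at 1.25% and 0.959%, and the 2 sets of cells lie at 3768 and 186 CPM in WT.

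The next question was whether the library of the knockout differed from that of the wild type. With 1 pooled library per genotype, the values describe these libraries, and genotype, animals and preparation cannot be told apart. The mitochondrial share was higher in KO than in WT in 13 of 13 clusters, with log2 ratios from 0.06 in Sg and Sd1 to 0.57 in Sd9, and 0.29 in Sd10 (0.25 to 0.34). The median log2 ratio over all genes lay between -0.07 and 0.07 in the 13 clusters.

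The rRNAs carried this difference. The rRNA sum had log2 ratios from 0.26 in Sd2 to 0.62 in Sd9, above 0 in 13 of 13 clusters. mt-Rnr2 had its lowest ratio in Sg, at 0.31 (0.27 to 0.35), and its highest in Sd9, at 0.64 (0.61 to 0.68), with 3904 CPM in WT and 6101 in KO there. mt-Rnr1 followed less closely, from -0.08 in Sd6 (-0.20 to 0.03) and Sd10 (-0.21 to 0.04) to 0.49 in Sd9 (0.40 to 0.58).

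The mRNA sum did not share this direction. Its log2 ratio was between -0.16 and 0.15 from Sg to Sd4, then -0.69 in Sd5 (-0.86 to -0.51), -0.70 in Sd6 (-0.87 to -0.53), -0.30 in Sd7, -0.26 in Sd8, 0.02 in Sd9 and -1.09 in Sd10 (-1.30 to -0.89). In the mRNAs, KO was thus lower in Sd5 to Sd8 and in Sd10, but for Sd9 no direction can be given: its interval of -0.09 to 0.13 included 0, and the ratio was -0.05 when centred on the median of all genes and ran from -0.41 without the 5% of cells with the highest mitochondrial percent to 0.17 without those with most UMIs.

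**Figure D5:**
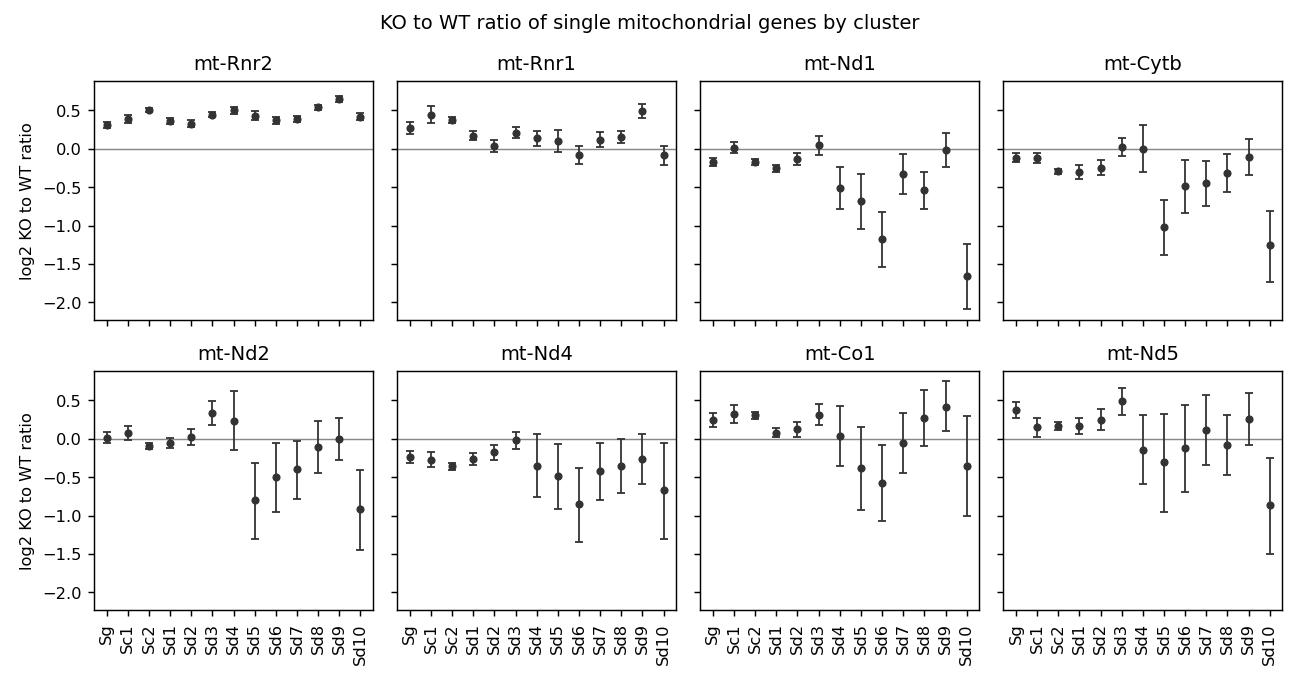
KO to WT log2 ratio of CPM, with the 95% counting interval, in each of the 13 clusters for the 2 rRNAs and 6 mRNAs, on 1 common scale with a line at 0. mt-Rnr2 lies between 0.31 and 0.64 in each cluster, and mt-Nd1 and mt-Cytb have their lowest points in Sd10, at -1.65 and -1.26.

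In Sd10, 6 of the 13 mitochondrial mRNAs had at least 10 UMIs in both libraries together. mt-Nd1 had 155 UMIs (124 CPM) in WT and 69 UMIs (39.2 CPM) in KO, with a log2 ratio of -1.65 (-2.09 to -1.24). mt-Cytb had 111 UMIs (88.6 CPM) and 65 UMIs (36.9 CPM), at -1.26 (-1.73 to -0.81). These 2 of 6 were at least 2-fold lower in KO, as were 5.17% of all genes with as many UMIs in that cluster.

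The other complex I mRNAs were lower by less. mt-Nd2 had 77 and 57 UMIs and a log2 ratio of -0.92 (-1.45 to -0.41), mt-Nd5 52 and 40 UMIs at -0.86 (-1.50 to -0.25) and mt-Nd4 49 and 43 UMIs at -0.67 (-1.31 to -0.06). mt-Co1 of complex IV had 40 and 44 UMIs at -0.35 (-1.01 to 0.30), an interval that includes 0. The ratio was below 0 for 6 of 6 mRNAs, beside 46.8% of all genes, and its interval lay below 0 for 5 of 6, beside 6.95%. The share over all genes counts every gene with at least 10 UMIs, and these mRNAs had more, so the intervals were not compared at like depth.

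The spread over cells bears on these values, since the intervals treat every UMI as independent and 10 WT cells held 265 of the 485 mRNA UMIs. Without the 5% of cells with most mitochondrial mRNA in each library, mt-Nd1 had -1.06 (-1.62 to -0.53) and mt-Cytb -0.92 (-1.58 to -0.29). mt-Nd2 had -0.56 (-1.27 to 0.13) in these cells, mt-Nd5 -0.21, mt-Nd4 -0.04 and mt-Co1 0.09, so 1 mRNA instead of 2 stayed at least 2-fold lower. A UMI of mt-Nd1 was found in 33.7% of the 184 WT cells and 19.1% of the 278 KO cells of Sd10 (22.6% and 11.4% after thinning), and one of mt-Cytb in 26.1% and 15.8% (17.2% and 9.85%).

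In 2 earlier clusters 1 mRNA each was at least 2-fold lower in KO. In Sd5 it was mt-Cytb, with 182 and 106 UMIs and a log2 ratio of -1.02 (-1.38 to -0.67), where 3.82% of all genes were as much lower. In Sd6 it was mt-Nd1, with 213 and 99 UMIs at -1.17 (-1.54 to -0.83), where 3.80% were. In each of these clusters 6 mRNAs had at least 10 UMIs. The other 10 clusters held no mitochondrial mRNA at least 2-fold apart in either direction.

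Over the course the signs of the mRNAs differed between genes and, for most, also between clusters. mt-Nd4 was below 0 in 13 of 13 clusters, from -0.85 in Sd6 to -0.02 in Sd3. mt-Co1 was above 0 in Sg (0.24, 0.15 to 0.33), in Sc2 (0.30, 0.26 to 0.35) and in Sd9 (0.42, 0.10 to 0.75), and mt-Nd5 was above 0 in Sg (0.38, 0.27 to 0.48) and Sd3 (0.48, 0.31 to 0.66). Intervals of mt-Co1 lay above 0 in 7 clusters and below 0 in 1, and those of mt-Nd5 in 6 and 1. The lowest ratio of mt-Co1 was -0.57 in Sd6 and that of mt-Nd5 -0.86 in Sd10. mt-Nd1 was below 0 in Sg (-0.17, -0.22 to -0.12) and mt-Cytb likewise (-0.12, -0.17 to -0.06). Each had an interval below 0 in 10 clusters and was highest in Sd3, at 0.04 and 0.02, where the intervals included 0. Of the rarer mRNAs, mt-Nd3 had 94 and 42 UMIs in Sc1 and a log2 ratio of -0.71 (-1.28 to -0.18), and the intervals of mt-Nd6, mt-Co2, mt-Co3 and mt-Atp6 included 0 wherever they had at least 10 UMIs. mt-Atp8 and mt-Nd4l reached 10 UMIs in no cluster.

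tRNA ratios rested on few UMIs, and 9 of the 15 tRNAs reached 10 UMIs in at least 1 cluster. mt-Ty did so in 10 clusters, with log2 ratios from -0.54 in Sd8 to 1.53 in Sd4 and intervals that all included 0. mt-Tw lay below 0 in the 5 clusters where it was read, from -1.35 in Sg (-2.88 to -0.12) to -0.13 in Sc1. mt-Tp had an interval of 0.10 to 3.57 in Sc1 and a ratio of -1.42 (-3.59 to 0.18) in Sg, and mt-Tt stood at -2.58 (-8.44 to -0.23) in Sc1. No direction was common to the tRNAs.

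Respiratory chain complexes need nuclear subunits too, and the lists below hold those members whose row in the count matrix was certain. The complex I list was drawn up by gene symbol. From Sg to Sd10, the nuclear members had median log2 ratios of -3.79 in WT and -3.65 in KO for complex I (31 of 37 members), -4.21 and -4.42 for complex II (2 of 4), -3.33 and -3.17 for complex III (9 of 10), -4.26 and -4.19 for complex IV (12 of 16) and -4.38 and -4.28 for complex V (13 of 20). The proteins of the mitochondrial ribosome (42 of 81) had -4.40 and -4.09. The summed mitochondrial mRNAs had -5.18 and -6.21 and the rRNAs -0.32 and -0.27 over the same stretch, beside -3.09 and -2.92 for the median of all genes.

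From Sg to Sd4, where the 6 mitochondrial mRNAs of WT were between 48.1-fold and 107-fold lower, the sums of the nuclear lists differed far less. The summed nuclear members of complex I stood at 9802 CPM in WT and 9339 in KO in Sg and at 5706 and 5460 in Sd4, those of complex III at 3974 and 3832 and then 2088 and 1929, those of complex IV at 9518 and 9038 and then 6098 and 5659, and those of complex V at 6889 and 6709 and then 2371 and 2178. Single members differed widely. Ndufa4, placed in the complex I list by its symbol alone, stood at 557 CPM in WT and 592 in KO in Sg (915 and 857 UMIs). In Sd4 it had 14 UMIs in WT and 24 UMIs (4.01 CPM) in KO. In WT this difference was larger than that of any of the 6 mitochondrial mRNAs. Ndufa11 stood at 634 and 626 CPM in Sg and at 49.8 and 46.4 in Sd4. Ndufa12 of complex I stood at 258 and 260 CPM in Sg and 462 and 453 in Sd4, and Cox8c, a testis isoform of complex IV, at 421 and 453 and then 807 and 720. Atp5e of complex V stood at 840 and 805 CPM and then 334 and 312. Tfam, which packs mitochondrial DNA and takes part in its transcription, stood at 258 and 317 CPM in Sg and 254 and 347 in Sd4. It stood at 464 and 504 CPM in Sd9 and 140 and 121 in Sd10.

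Between the libraries, the nuclear lists lay near the median of all genes in Sd10, which was 0.04. Median log2 ratios of KO to WT were -0.02 for complex I (26 genes with at least 10 UMIs), 0.09 for complex III (9), 0.14 for complex IV (10), -0.08 for complex V (13) and 0.08 for the mitochondrial ribosome (29). Of complex II only Sdhb was read, at -0.23 (-1.04 to 0.60), and Tfam, the only one of 12 listed genes of mtDNA maintenance with a certain row, was at -0.20 (-0.50 to 0.09). Ndufa4 had 12 UMIs in WT and 3 in KO (-2.28, -4.96 to -0.60), and Ndufa11 had 12 and 37 (1.11, 0.16 to 2.21). Of the ribosomal proteins, Mrpl1 had 3 and 12 UMIs (1.39, -0.38 to 3.97) and Mrpl37 5 and 17 (1.21, -0.22 to 3.07). Of the 5 members with a certain row for mitochondrial transcription and RNA handling, 2 were read in Sd10: Slirp, which stabilises mitochondrial mRNAs, had 12 and 27 UMIs (0.66, -0.35 to 1.79) and the exonuclease gene Rexo2 10 and 13 (-0.11, -1.42 to 1.24). Mterf3, another and less counted member, had 34 and 31 UMIs in Sg and 0 and 3 in Sd10. The lists were not as near the median of all genes in Sd9, where that median was 0.07. Medians there were 0.13 for complex I, 0.32 for complex III, 0.40 for complex IV, 0.11 for complex V and 0.19 for the mitochondrial ribosome.

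The other named members of these lists lay within 2-fold in Sd10. The intervals of Cox7b2, Cox8c and Mrpl51 lay above 0 and that of Mrpl54 below 0. Of all genes read in Sd10, 6.95% had an interval below 0. The share with an interval above 0 was not taken, so whether these members differ from other genes cannot be read from their intervals. Ndufa7 was at -0.11 (-0.58 to 0.36) and Ndufc1 at 0.17 (-0.31 to 0.66), Uqcr10 at 0.28 (-0.15 to 0.72) and Uqcrb at 0.56 (-0.63 to 1.91). Cox7a2 was at 0.07 (-0.19 to 0.33) and Cox7b2, a testis isoform, at 0.62 (0.15 to 1.10). Cox8c was at 0.33 (0.03 to 0.63). Atp5e was at -0.19 (-0.61 to 0.22), Atp5h at -0.17 (-0.49 to 0.15) and Atp5j at -0.18 (-0.77 to 0.41). Mrpl51 was at 0.57 (0.09 to 1.07), Mrpl54 at -0.57 (-0.90 to -0.25) and Mrpl57 at 0.23 (-1.04 to 1.62).

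The genes whose course over the clusters was most like that of the summed mitochondrial mRNAs were found among 4290 symbols with a certain row and at least 1000 UMIs, by Pearson's r of log2 CPM over the 13 clusters, which share their libraries. In WT they were Eif6 (0.990), Rps27a (0.989), U2surp (0.987), Mtx2 (0.987) and Rbm8a (0.987). In KO they were U2surp (0.990), Pnn (0.989), Rps27a (0.988), Armc8 (0.986) and Ppig (0.985). Rps27a, which encodes ubiquitin fused to a ribosomal protein, stood at 1964 CPM in WT and 1613 in KO in Sg and at 29.2 and 29.7 in Sd4, and in Sd10 it too was higher in the 5% of cells with most mitochondrial mRNA, at 171 CPM against 24.5 in WT and 143 against 14.4 in KO.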

How the data were processed

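Cells of WT and Tex13a-KO testes had been captured with a Singleron GEXSCOPE kit. Per the labels and the study's methods, the authors used FastQC 0.11.7, fastp, STAR 2.5.3a (mm10, Ensembl annotation), featureCounts 1.6.2 and Seurat 3.2.3. They deposited raw UMI counts per gene and cell, with a cell table giving library, cluster and the percent of mitochondrial UMIs, for cells they had filtered. Limits of that filter, and the use of strand and of reads with several matches in counting, are not given in the sources used here. No doublet caller was run here.

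The deposited matrix has 26758 rows but the symbol list 25065 lines. The 30 mt- rows were those that, in list order, give back the deposited percent of mitochondrial counts in a cell, which held exactly in 12408 of 12408 cells. Taking line number as row number held in 662. Other symbols were used only where 1 row was possible if each row found in at least 5 cells has a symbol (5476 symbols, 86.9% of UMIs). Values of the rows themselves need no symbol, and all rows form the background.

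For each cluster of a library the UMIs were added up and given as CPM. Log2 ratios used a prior of 1 UMI shared by depth, and genes with at least 10 UMIs in the groups compared were read. Intervals are exact 95% Poisson or binomial (Clopper-Pearson) ones, conditional on the summed UMIs for ratios. They cover counting error only, and a count of 0 allows up to 3 counts. Genes were named as all 30 members, the 3 most counted members of each nuclear list, those at least 2-fold apart in Sd10, and the 5 most like the summed mRNAs per library. Nuclear copies were found with blastn 2.17.0 between GENCODE vM21 transcripts. Python 3.11.15, numpy 2.4.6, scipy 1.17.1, pandas 2.3.3 and matplotlib 3.10.9 were used. The ratio step was tested on simulated Poisson counts. The matching step was tested on the deposited matrix, with other rows in place of the mitochondrial ones. The members, lists and comparisons were chosen with earlier results of these data known. Alternatives were other scalings, minimums, priors and sets of cells.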

Additional observations from a re-analysis of the deposited data

Results flagged for a closer look

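The KO to WT log2 ratio of the summed mitochondrial mRNAs had opposite signs in 2 clusters, 0.15 in Sd3 and -1.09 in Sd10. The ratio of summed mitochondrial UMIs in Sd10 to those in Sd9 also had opposite signs in the libraries, 0.20 in WT and -0.0785 in KO on the log2 scale. With 1 library per genotype neither difference could be tested. Outside the mitochondrial genes, Gm13340, the nuclear copy of the whole of mt-Co1 on chromosome 2, had 349 UMIs, above the 3 that a count of 0 allows.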

How the results depend on the processing

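No paired analysis was possible because each genotype has 1 pooled library. KO stood above WT in the mitochondrial share in 13 of 13 clusters under each of the 8 alternatives run for it. The sign turned for the KO to WT ratio of summed mRNAs in Sd9, 0.02 with a range of -0.41 to 0.17, and for mt-Co1 in Sd10, -0.35 but 0.18 without the 5% of cells with the highest mitochondrial percent and 0.09 without those with most mitochondrial mRNA, both with intervals that include 0. Of the values that answer a comparison, 31 stayed the same and 13 moved. A ratio was taken as moved when it left its counting interval. Counts have no such interval and were judged by a fixed limit on their fold change. The log2 ratio of the mitochondrial share from Sg to Sd10 was -1.84 in WT and -1.61 in KO. It was -1.53 and -1.32 with totals that leave out the 10 most abundant nuclear rows, -1.94 in WT without the 5% of cells with the highest mitochondrial percent, and -1.66 in KO as the mean of single-cell percentages. In Sd10 the KO to WT log2 ratio of all mitochondrial UMIs was 0.29, and it was 0.22 by the mean of single cells, 0.25 centred on the median of all genes, 0.25 with size factors, 0.25 without the 5% of cells with most UMIs and 0.41 without those with the highest mitochondrial percent. Without the 5% of cells with most mitochondrial mRNA, an alternative chosen after seeing the data, the mRNAs at least 2-fold lower in KO in Sd10 were 1 instead of 2. The log2 ratio of rRNA to mRNA UMIs in Sd10 then was 4.81 instead of 3.82 in WT and 5.85 instead of 5.27 in KO, and 4.11 in WT without the cells of highest mitochondrial percent. The causes were not tested. Over all settings the KO to WT log2 ratio of summed mRNAs in Sd10 lay between -1.20 and -0.62. Depth limits the late clusters, where the summed mRNAs of Sd10 rest on 485 and 320 UMIs, and one library per genotype limits every comparison of genotypes.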
